A study of Mus musculus with 4 samples.

Results

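The genes described here are 10 members of the mouse aldo-keto reductase family, chosen by the readout of Akr1c18: in an earlier look at these arrays it was one of the largest increases after Smarcb1 re-expression in both tumour lines. The other 9 were taken by family name, and they are Akr1c6, Akr1c12, Akr1c13, Akr1c14, Akr1c19, Akr1b3, Akr1b7, Akr1b8 and Akr1a1. Of the 10, 8 matched a probe set with a single gene symbol, 1 probe set each, among 19938 genes measured. Akr1b3 and Akr1b7 had no such probe set and are not analysed here. RNA was measured on 4 whole-transcript arrays. Lines 167 and 365 were each grown from a Smarcb1-deficient soft tissue tumour of a p53 null mouse that was heterozygous for Smarcb1, on a mixed C57BL6/SV129J background. By the labels, all 4 cultures thus shared the p53 null background and the loss of the cells' own Smarcb1, and each line is 1 tumour. The groups were the pMIG retrovirus carrying Smarcb1 and the empty pMIG retrovirus, with RNA taken 3 days after infection and 1 array for each line and vector. The labels mention no selection of infected cells and no repeat cultures.

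Aldo-keto reductases are soluble enzymes that use NADPH to reduce aldehydes and ketones to alcohols. The AKR1C branch acts on steroids, prostaglandins and other ketones, and its mouse genes sit side by side in a cluster. Akr1c18 encodes the enzyme that turns progesterone into a weakly active alcohol, an activity best known from the corpus luteum, where it helps to end pregnancy. Akr1c14 and Akr1c6 encode other steroid dehydrogenases, of which Akr1c6 is abundant in liver. The AKR1B branch holds aldose reductase (Akr1b3) and its relatives Akr1b7 and Akr1b8, and Akr1a1 encodes the widely expressed aldehyde reductase.

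The upstream sequences of 4 AKR1C members are shown because these genes lie in 1 cluster, gave very different values, and in 1 pair are close copies. The 250 bases before the transcript start were taken from the RefSeq promoter table (build GRCm38.p6), which held 9 of the 10 members (all but Akr1b3). Each is written 5′ to 3′ in the direction of the gene. Akr1c18 lies on the minus strand at chr13:4150647-4150896 and Akr1c14 on the plus strand at chr13:4059341-4059590. Capitals mark the longest stretches of letters that both share, 3 of 8 bases each. These stretches lie at different distances from the transcript start and in a different order in the genes. How many such stretches unrelated sequences share was not tested.
Akr1c18: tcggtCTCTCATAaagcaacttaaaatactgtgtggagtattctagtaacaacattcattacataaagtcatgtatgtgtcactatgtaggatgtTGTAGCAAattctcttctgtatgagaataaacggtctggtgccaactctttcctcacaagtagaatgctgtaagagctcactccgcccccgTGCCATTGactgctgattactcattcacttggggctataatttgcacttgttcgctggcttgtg
Akr1c14: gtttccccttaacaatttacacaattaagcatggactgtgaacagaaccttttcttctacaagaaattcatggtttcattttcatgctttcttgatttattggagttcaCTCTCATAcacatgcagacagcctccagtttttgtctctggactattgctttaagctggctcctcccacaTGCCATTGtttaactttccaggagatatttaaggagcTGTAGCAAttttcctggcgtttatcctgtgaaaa

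Akr1c13 lies on the plus strand at chr13:4190937-4191186 and Akr1c12 on the minus strand at chr13:4279400-4279649, and here capitals mark the bases that differ in a global alignment of the pair, end offsets included.
Akr1c13: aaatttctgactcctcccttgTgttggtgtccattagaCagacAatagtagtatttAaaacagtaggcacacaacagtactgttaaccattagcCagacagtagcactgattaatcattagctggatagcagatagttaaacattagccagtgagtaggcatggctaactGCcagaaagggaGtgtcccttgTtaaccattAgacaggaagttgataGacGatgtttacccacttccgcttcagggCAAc
Akr1c12: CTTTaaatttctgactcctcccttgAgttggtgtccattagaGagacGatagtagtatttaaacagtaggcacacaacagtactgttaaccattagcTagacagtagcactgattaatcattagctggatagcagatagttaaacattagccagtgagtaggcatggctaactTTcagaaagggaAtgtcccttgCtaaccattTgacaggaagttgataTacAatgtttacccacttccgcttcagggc

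These upstream sequences of Akr1c12 and Akr1c13 were 92.5% identical over 254 alignment columns. The next closest pairs were Akr1c13 with Akr1c19, at 60.3%, and Akr1c12 with Akr1c19, at 59.0%. Akr1c18 and Akr1c14 were 55.9% identical, and the median over all 36 pairs of the 9 members was 50.4%. The AP-1 motif TGANTCA, searched on both strands, matched 0 of the 9 member sequences and 6.75% of all 32851 upstream sequences in the table. The antioxidant response element core TGACNNNGC also matched 0 of the 9, against 10.2% of all. The letters TATAAA were found for Akr1c6 and Akr1b8 but in none of the sequences printed above, against 12.4% of all. The TEAD motif CATTCC was found for Akr1c12 and Akr1c6, against 12.6% of all, and CCAAT for Akr1b7, Akr1c14, Akr1c19 and Akr1c6, against 33.8%. A missing match says only that these letters do not occur in these 250 bases.

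Smarcb1 itself stood at log2 4.61 with empty vector and 7.83 with Smarcb1 in line 167, and at 6.01 and 9.61 in line 365. It was thus higher with Smarcb1 in both lines, as the vector labels say. Both empty-vector signals lay above the 95th percentile of the olfactory receptor genes given below. Line 365 was higher than line 167 by 1.40 with empty vector and 1.78 with Smarcb1. The source of the empty-vector signal was not tested. All levels below are deposited log2 signals, so a difference of 1 is a 2-fold change. The median signal of the 4 arrays over all probe sets lay between 5.03 and 5.07. Genes with a mean below log2 4.27, the 30th percentile of the gene means, were not tested. As a measure of background, the 1015 olfactory receptor genes on the array had medians of 3.05 to 3.10, and their 95th percentile lay between 4.24 and 4.34. Of the 8 measured members, 3 were tested (Akr1c18, Akr1b8 and Akr1a1), and Akr1c18 passed the limit only through its Smarcb1 arrays.

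Akr1c18 was at background with empty vector and clearly above it with Smarcb1, in both lines. With empty vector its signal was log2 3.40 in line 167 and 3.46 in line 365. With Smarcb1 it was 7.47 in line 167 and 7.75 in line 365. Both Smarcb1 arrays were thus high and both empty-vector arrays were low. The change was 4.06 in line 167 and 4.29 in line 365, or 16.7-fold and 19.6-fold as measured. Only 17 of the 19938 genes had a larger increase in line 167, and 2 had one in line 365. Because both controls lay within the olfactory receptor range, the true size of the change is not known. Set against the filter level of 4.27 in place of the control, the Smarcb1 arrays were 9.19-fold and 11.2-fold higher, by 3.20 and 3.48 on the log2 scale. Akr1c18 was picked for these very values, so they are a description and carry no test. In bulk RNA, more cells with the transcript and more transcript per cell cannot be told apart. Of the 7 measured leukocyte markers, Cd68 was lower with Smarcb1, at 9.32 and 8.69 in line 167 and 9.95 and 8.18 in line 365. The rest gave no common direction: Ptprc, the defining marker, was near background at 3.66 to 4.06 and, like Csf1r and Lyz2, slightly higher with Smarcb1 in both lines. The list's summed linear signal, which Cd68 dominates, was 744.6 and 1103.6 with empty vector and 527.6 and 413.4 with Smarcb1, and its medians over the 3 tested genes were 0.10 and -0.16. The part of these markers in the Akr1c18 values was not tested.

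Akr1c14, the direct neighbour of Akr1c18, was high on a single array. Its signal was 3.23 with empty vector and 6.21 with Smarcb1 in line 167, and 3.35 and 3.44 in line 365. The array of line 167 with Smarcb1 stood alone above the filter level, and the other 3 lay within the olfactory receptor range. The change was 2.99 in line 167, 7.92-fold as measured or 3.84-fold against the filter level, and 0.09 in line 365. Only 58 genes had a larger increase in line 167, while 6968 had one in line 365. With 1 array per line and vector, neither value nor the gap of -2.89 between the responses (line 365 minus line 167) can be tested. Most mesenchymal marker genes rose in the same line. The 9 tested of 10 had a median change of 1.16 in line 167 and 0.09 in line 365. The largest in line 167 was the collagen gene Col1a1, at 2.65 and 0.03. Vim, the brightest, went the other way, at -0.22 and 0.09. Lum, the marker not tested, was near background, at -0.04 and 0.28. The list's summed linear signal, which Vim dominates, was 15576.4 with empty vector and 17284.5 with Smarcb1 in line 167. In line 365 it was 10711.3 and 11368.8. The part of these markers in the Akr1c14 value was not tested.

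The remaining AKR1C members, Akr1c6, Akr1c12, Akr1c13 and Akr1c19, stayed below the filter level on all 4 arrays. Their 16 signals ran from 2.62 to 3.65, all inside the range that holds most olfactory receptor genes. Akr1c6 read 3.65 and 3.50 in line 167 and 3.32 and 3.59 in line 365, with empty vector first. Akr1c13 read 3.29 and 3.12, then 3.21 and 3.45. Akr1c12 varied least, between 2.66 and 2.81, and Akr1c19 ran from 2.62 to 3.05. Changes with Smarcb1 in these genes lay between -0.17 and 0.31. With Smarcb1, Akr1c6 and Akr1c13 were slightly lower in line 167 and higher in line 365, while Akr1c12 was slightly lower in both. Signal above background was not shown for any of the 4, so no change could be detected rather than shown to be absent. Whether the probes of Akr1c12 and Akr1c13, whose upstream sequences are close copies, read each other's transcript was not tested.

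**Figure D1:**
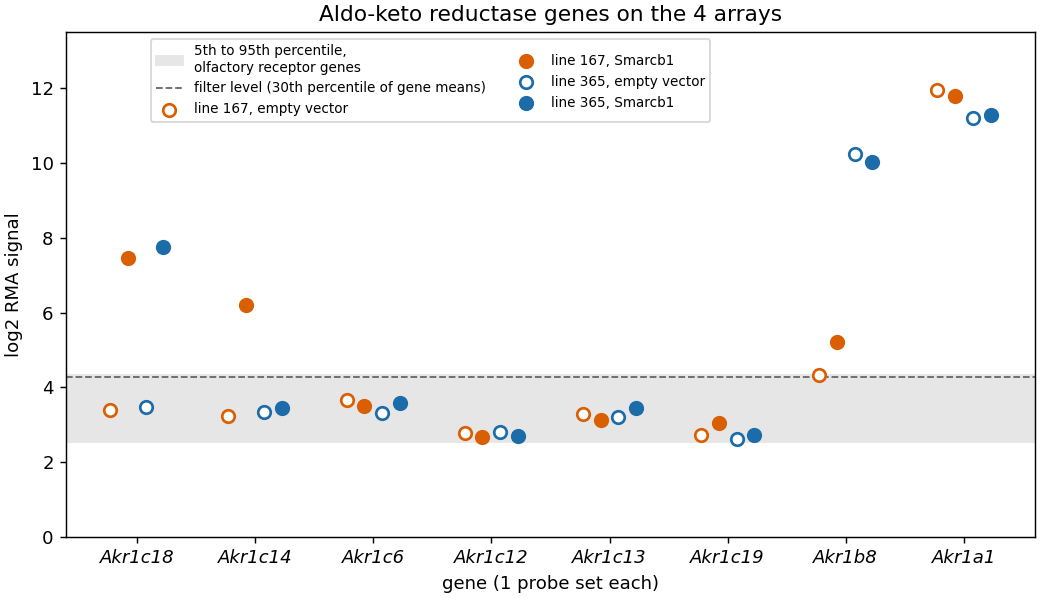
Log2 RMA signal (vertical axis) of the 8 measured aldo-keto reductase genes on each of the 4 arrays, with orange for line 167, blue for line 365, open points for empty vector and filled points for Smarcb1; the grey band spans the 5th to 95th percentile of olfactory receptor genes (the outermost values over the arrays) and the dashed line is the filter level of 4.27. Akr1c18 leaves the band on both Smarcb1 arrays (7.47 and 7.75), Akr1c14 on 1 (6.21), and Akr1b8 separates the lines.

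Akr1b8, a relative of aldose reductase first known as a gene induced by fibroblast growth factor, differed between the lines far more than with the vector. Its signal was 4.34 with empty vector and 5.21 with Smarcb1 in line 167, and 10.23 and 10.02 in line 365. Both arrays of line 365 were high and both of line 167 were low. The lowest array, line 167 with empty vector, was at the edge of the olfactory receptor range, whose 95th percentile there was 4.24. Akr1b8 was higher in line 365 by 5.89 between the empty-vector arrays and by 4.81 between the Smarcb1 arrays. In the limma fit with terms for line and vector, the difference was 5.35 ± 0.30 (moderated SE, n = 2 arrays per line), or 40.7-fold, with adjusted p = 0.00369. With Smarcb1 its change was 0.88 in line 167 and -0.21 in line 365. Marker genes differed between the lines too. Of the 9 tested mesenchymal markers, 4 were lower and 0 higher in line 365 by the limma line term, with a median difference of -1.87. Over all tested genes the term called 10.9% in either direction. Of the 6 endothelial markers, the junction gene Cdh5 alone differed widely, at 3.78 and 3.64 in line 167 against 9.06 and 8.29 in line 365, and the other 5 differed by -0.20 to 0.34. The list's summed linear signal, 110.5 and 132.2 in line 167 and 647.9 and 422.3 in line 365, follows Cdh5. The part of these markers in the Akr1b8 difference was not tested.

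Akr1a1, the aldehyde reductase gene, was bright on every array and lower in line 365. Its signal was 11.96 and 11.79 in line 167 and 11.21 and 11.29 in line 365, with empty vector first. With each vector, the array of line 365 lay below that of line 167. The line difference was -0.63 ± 0.11 (moderated SE, n = 2 arrays per line) with limma adjusted p = 0.0349, a level 1.54-fold lower in line 365. The call ended without the intensity trend (limma adjusted p = 0.0890) and without the vector term (0.0505), while the other 4 alternatives gave 0.0165 to 0.0245. The change with Smarcb1 was -0.17 in line 167 and 0.08 in line 365.

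Akr1c18 was higher in line 365 by 0.05 with empty vector, where both arrays were at background, and by 0.28 with Smarcb1. It entered the fit only through the Smarcb1 arrays for which it was chosen, so no test of its line difference is given. The line test called the other 2 tested members, Akr1b8 higher and Akr1a1 lower in line 365, where 10.9% of all 13956 tested genes were called. Akr1c14 was higher in line 365 by 0.12 with empty vector and lower by 2.77 with Smarcb1, so its line difference rested on 1 array. It was tested only without the filter, where the line term gave -1.33 ± 0.63 and limma adjusted p = 0.274. The 4 dim AKR1C genes differed between the lines by -0.32 to 0.33. The lines come from different tumours with 2 arrays each, 1 per vector. The error in the test is thus how far the line difference varied between the vectors, moderated by the prior over all tested genes. It does not measure the spread between repeat cultures of a line or between tumours.

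**Figure D2:**
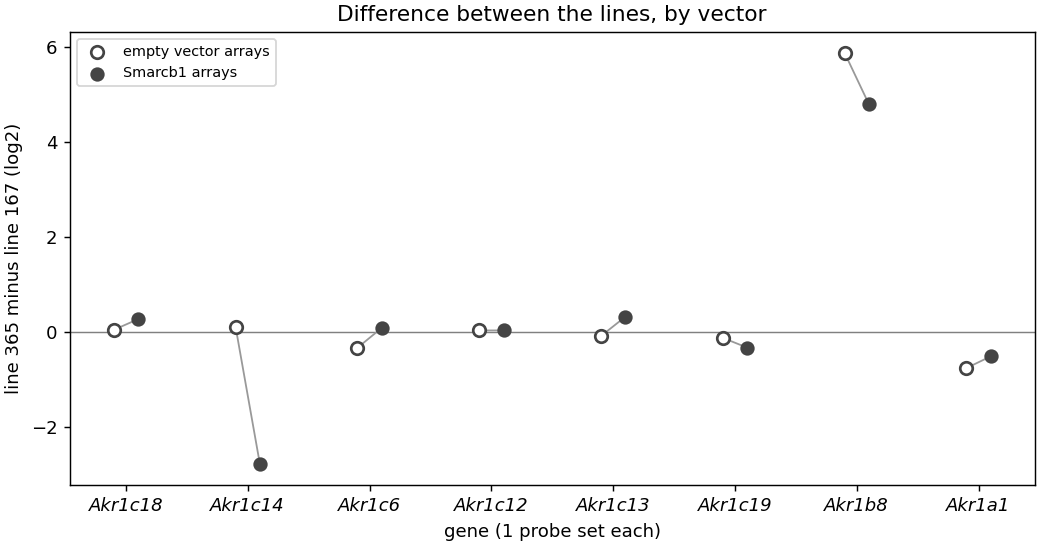
Line 365 minus line 167 on the log2 scale (vertical axis) for the 8 measured genes, as an open point between the 2 empty-vector arrays and a filled point between the 2 Smarcb1 arrays, joined for each gene. Akr1b8 is high in both (5.89 and 4.81), Akr1a1 is below 0 in both, and Akr1c14 departs from 0 only between the Smarcb1 arrays (-2.77).

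Across the 8 measured members, 2 were at least 2-fold higher with Smarcb1 in line 167 (Akr1c18 and Akr1c14), where 2.53% of all genes were. In line 365 the count was 1 (Akr1c18), against 2.04% of all genes. At least 2-fold lower were 0 members in line 167 (1.08% of all genes) and 0 in line 365 (0.843%). The responses of the lines were at least 2-fold apart for 2 members, Akr1c14 and Akr1b8, against 4.08% of all genes. The median change of the 8 was 0.10 in each line, beside medians of -0.02 and -0.001 over all genes. Of the 3 tested members the limma vector term called 1, Akr1c18, while it called 0.0645% of all tested genes. Since the choice of Akr1c18 used this contrast, nothing is read from that count.

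**Figure D3:**
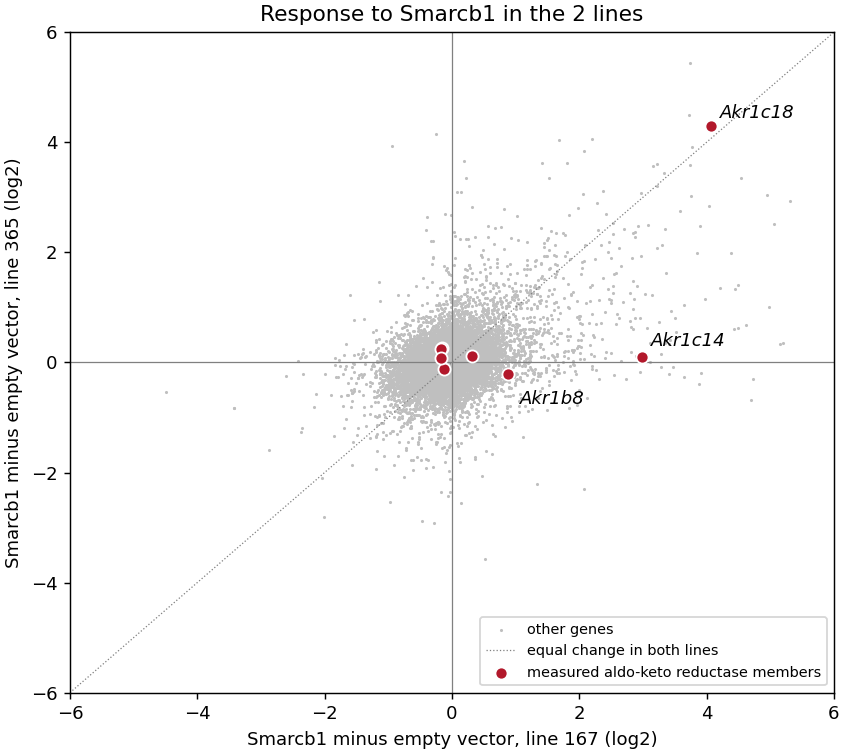
Smarcb1 minus empty vector on the log2 scale in line 167 (horizontal axis) and line 365 (vertical axis), with 1 point per gene, grey for other genes and red for the 8 measured members; the dotted line marks equal change. Akr1c18 lies near the dotted line at 4.06 and 4.29, Akr1c14 on the horizontal axis at 2.99 and 0.09, and 5 of the other members sit in the dense centre.

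The gene order in RefSeq sets these values in place. On chromosome 13, 9 aldo-keto reductase genes follow each other with 0 other protein-coding genes between them, in the order Akr1c14, Akr1c18, Akr1c13, Akr1c19, Akr1c12, Akr1c6, Akr1c20, Akr1c21 and Akr1e1. The increases were found in the first 2 of this run. Akr1c13, on the other side of Akr1c18, differed from its controls by -0.17 and 0.24 (lines 167 and 365). Outside the run, Ucn3, a peptide hormone gene next to Akr1c14, was at -0.28 and 0.24, and Klf6, a zinc finger factor gene next to Akr1e1, at 0.28 and 0.75. No source used here names the build behind the probe sets, so gene positions served for their order only.

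**Figure D4:**
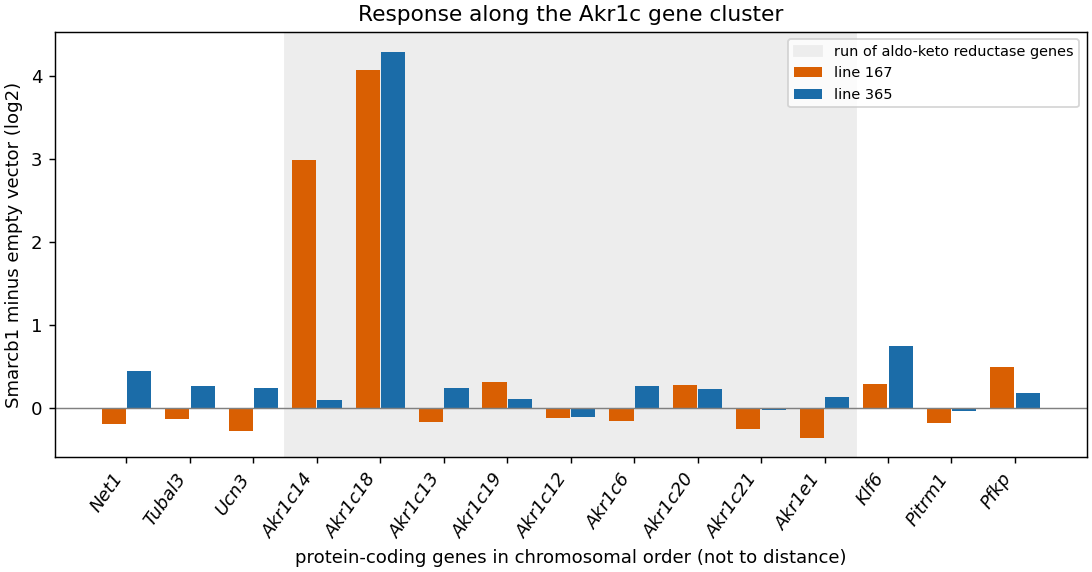
Smarcb1 minus empty vector on the log2 scale (bars, from 0) for the protein-coding genes of the Akr1c cluster and 3 genes on each side, in chromosomal order and not to distance, with orange for line 167 and blue for line 365; shading marks the run of 9 aldo-keto reductase genes. Akr1c18 is tall in both lines, Akr1c14 in line 167 alone, and the other genes shown stay between -0.36 and 0.75.

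Other aldo-keto reductase genes did not pass the test for Smarcb1. Of 10 measured genes outside the members, 5 were tested, and the limma vector term called 0 of them, with 0 at an unadjusted p below 0.05. Akr1b10, an AKR1B relative, was at 7.64 and 8.26 in line 167 and at 8.25 on both arrays of line 365, a change of 0.62 and 0.005 (adjusted p = 0.620). The difference was -0.36 and 0.13 for Akr1e1 and 0.01 and 0.18 for Akr7a5. For the potassium channel beta subunit genes it was -0.16 and 0.31 (Kcnab2) and -0.08 and 0.16 (Kcnab3). Akr1c20, Akr1c21, Akr1cl and Akr1d1 were below the filter level on all arrays, and so was Kcnab1. Between the lines, Kcnab2 was lower in line 365 by 1.11 ± 0.22 (limma adjusted p = 0.0432), with signals of 6.79 and 6.63 in line 167 and 5.44 and 5.75 in line 365.

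Genes around the enzyme activities of the family were read from 8 lists, other aldo-keto reductases included. The lists held 118 distinct tested genes outside the members. The limma vector term called 0 of them at an adjusted p below 0.05, while 11 were higher and 15 lower at an unadjusted p below 0.05, which is 22.0% against 11.6% of all tested genes. The call depended on the settings, since 3 to 5 list genes passed under 4 alternatives. Paired values below give the change in line 167 and then in line 365.

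Steroid synthesis genes, a list not limited to those that make the substrate of Akr1c18, were mostly dim. Of 15 measured genes 6 were tested and 0 called, with medians of -0.12 and -0.17. Ferredoxin Fdx1, the electron carrier of mitochondrial steroid enzymes, was at -0.47 and -0.26 (limma adjusted p = 0.518). The steroidogenic factor gene Nr5a1 was at -0.17 and -0.19, and Cyp21a1 and Stard3 at -0.08 and -0.29 and at -0.30 and -0.04. Cyp11a1, the first enzyme of steroid synthesis, lay between 3.27 and 3.31 on all 4 arrays, which is background. The transport gene Star lay between 4.29 and 4.58. Of the 8 measured markers of steroid-making cells, 4 were at or above the filter level on each array. The list's summed linear signal was 195.0 and 197.2 with empty vector and 212.8 and 210.2 with Smarcb1. Foxl2 had the largest change of the list in both lines, at 0.46 and 0.49 (limma adjusted p = 0.417). Of the 4 tested markers, 2 were higher in both lines and 1 was lower in both. The part of these markers in the Akr1c18 values was not tested. Of the 8 measured liver markers, 3 were at or above the filter level on each array of line 167. In line 365 the count was 3 with empty vector and 2 with Smarcb1. Albumin (Alb), a defining liver marker, was at 3.37 to 3.50. The brightest were Hnf4a, at 5.11 to 5.36, and Apoa1, at 4.81 to 5.03.

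Other steroid-converting enzymes gave 12 tested genes, of which 0 were called, with medians of -0.18 and 0.07. Hsd17b11 had the smallest p, with -0.48 and -0.65 (limma adjusted p = 0.324). Its signals were 8.23 and 7.75 in line 167 and 8.36 and 7.71 in line 365, with empty vector first. The sulfotransferase gene Sult2b1 was at 0.33 and 0.20, the reductase gene Srd5a3 at -0.38 and -0.19, and Hsd17b14 at -0.19 and -0.20. Steroid receptor genes gave 10 tested genes and 0 calls, with medians of 0.09 and 0.07. The membrane progestin receptor gene Paqr7 was at -0.89 and -0.40 (adjusted p = 0.380) and its relative Paqr8 at 0.39 and 0.15, while the mineralocorticoid and glucocorticoid receptor genes Nr3c2 and Nr3c1 were at 0.09 and 0.50 and at 0.04 and 0.36. The nuclear progesterone receptor gene Pgr was below the filter level, at 3.75 and 4.05 in line 167 and 3.81 and 4.18 in line 365. Pgr and Cyp11a1 were singled out after their values were seen.

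Genes around prostaglandins, compounds that some aldo-keto reductases reduce, had 12 tested members and 0 calls, with medians of 0.10 and 0.24. Ptgfrn, a membrane protein that binds near the prostaglandin F receptor, was at 2.04 and 1.83 (limma adjusted p = 0.0705). The cyclooxygenase gene Ptgs2 was at 1.62 and 1.78 (adjusted p = 0.0865) and the prostaglandin transporter gene Slco2a1 at 1.09 and 0.99 (adjusted p = 0.166). The prostacyclin synthase gene Ptgis was at -0.34 and -0.82. Ptgfrn passed under 4 alternatives (limma adjusted p = 0.0240 to 0.0481) but not without the intensity trend (0.0701) or without the line term (1.0).

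NRF2 is the factor that drives antioxidant genes and several aldo-keto reductases, and its targets and regulators gave 30 tested genes. The limma vector term called 0, with 2 higher and 9 lower at an unadjusted p below 0.05. Of the 30, 19 were lower in both lines, or 63.3%, beside 34.1% of all tested genes, and 5 were higher in both. The share was similar in the aldehyde, alcohol and polyol list, at 62.5% (15 of 24), and in steroid synthesis, at 66.7% (4 of 6). In the rest of the lists it was below that of all tested genes. It was 33.3% in steroid interconversion, 31.6% in retinoid genes and 10.0% in steroid receptors. Prostaglandin genes had 8.33% and other aldo-keto reductases 0.0%. The medians were -0.10 and -0.20 beside -0.06 and -0.01 over all tested genes. The sulfiredoxin gene Srxn1 was at -1.20 and -0.98 (adjusted p = 0.106), the glutathione reductase gene Gsr at -0.64 and -1.02 (adjusted p = 0.177) and the haem oxygenase gene Hmox1 at -0.84 and -1.70 (adjusted p = 0.177). Ephx1, which encodes the microsomal epoxide hydrolase, went the other way, at 2.84 and 2.35 (adjusted p = 0.0577). Its signals were 6.55 and 9.40 in line 167 and 6.06 and 8.41 in line 365.

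Enzymes of aldehydes, alcohols and polyols gave 24 tested genes and 0 calls, with medians of -0.13 and -0.09. The retinaldehyde dehydrogenase gene Aldh1a1 was at 2.54 and 1.61 (limma adjusted p = 0.112) and Aldh3b1 at 1.47 and 1.03 (adjusted p = 0.140). Aldh5a1, which encodes succinate semialdehyde dehydrogenase, was at -1.11 and -1.10 (adjusted p = 0.141), and Aldh1l2, a mitochondrial folate enzyme gene, at 0.85 and 0.46. Retinoid genes gave 19 tested genes and 0 calls, with a median of 0.00 in each line. Dhrs3, a retinaldehyde reductase gene, was at 4.04 and 2.84 (adjusted p = 0.0694). Its empty-vector signals were 5.67 and 5.68, and its Smarcb1 signals 9.71 and 8.52. The retinoic acid receptor gene Rara was at 0.82 and 0.79, the binding protein gene Crabp1 at -0.82 and -1.24, and Rdh11 at -1.14 and -0.21.

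**Figure D5:**
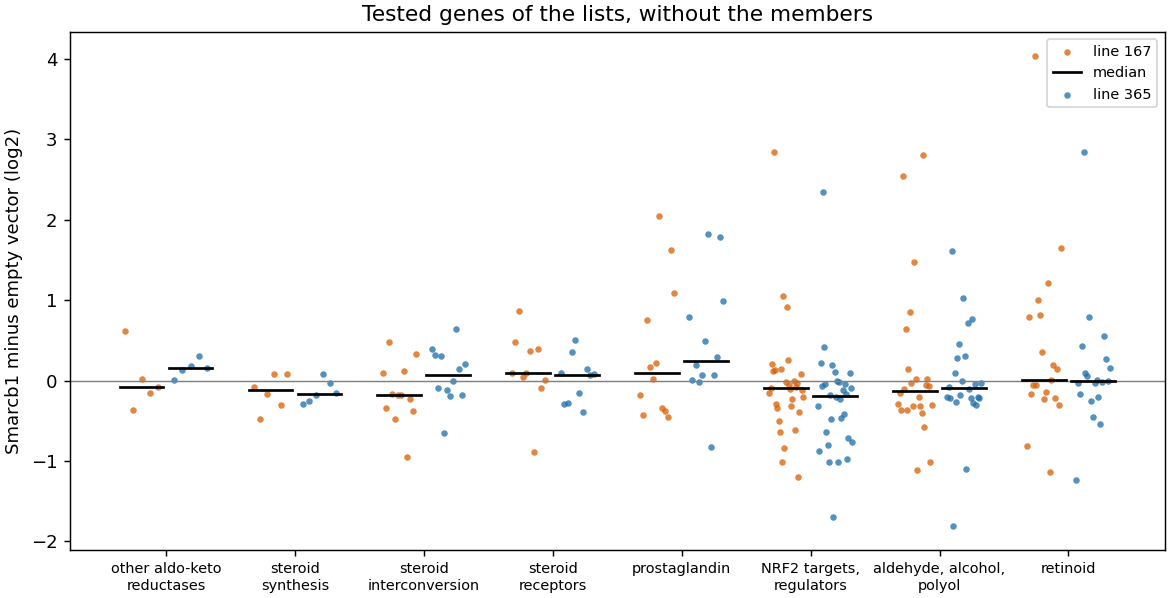
Smarcb1 minus empty vector on the log2 scale (vertical axis) for the tested genes of the 8 lists, with 1 point per gene and line, orange for line 167 and blue for line 365, and black bars for medians. The medians lie between -0.20 and 0.24, and the highest point is Dhrs3 in line 167 (4.04).

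The tested genes whose 4 values were most like those of Akr1c18 were Serpinb1a, Nrp1, Efnb2, Prss23 and Gda. Likeness was the Euclidean distance over the 4 arrays after each gene's own mean was taken off, and it was 0.36 for Serpinb1a, 0.38 for Nrp1, 0.63 for Efnb2, 0.84 for Prss23 and 0.85 for Gda. Serpinb1a, a serine protease inhibitor gene, also started at background, with 3.39 in both lines against 7.11 and 7.89 with Smarcb1. Nrp1, a semaphorin co-receptor gene, started higher, at 5.25 and 5.49, and reached 9.01 and 9.40. With 4 arrays and Akr1c18 chosen for its pattern, these distances are a description only.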

How the data were processed

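RNA of 4 cultures was hybridised to 1 array each. The authors deposited log2 signals per probe set; the submitters' processing notes name RMA and Affymetrix Expression Console, and RMA corrects background and quantile-normalizes. No source used here names versions or a build. A platform annotation named 21789 of 35556 probe sets with 1 gene symbol, 1621 with several and 12146 not, and 21698 matched a RefSeq gene table (GRCm38.p6). The brightest probe set on average stood for each of 19938 genes, and 13956 genes with a mean of at least log2 4.27 were tested with limma 3.58.1 in R 4.3.3 (terms for line and vector, eBayes with an intensity trend, two-sided, Benjamini-Hochberg over tested genes, threshold 0.05). The residual has 1 degree of freedom, plus 3.75 from the prior. Lines pair the arrays: deviations of the same line correlated at 0.770. On simulated data the fit recovered 10.3% of 2-fold, 92.3% of 4-fold and 98.9% of 8-fold line differences (13956 genes, 20 runs). Each run changed 200 genes and set the line difference of the others to 0. In the data 1528 genes were called, so these rates need not hold there. Promoter alignments used Biopython 1.88. Members and lists were chosen with earlier results of these data known. Named genes were the members, the other family genes, list genes called or otherwise the 4 of smallest p, the 5 nearest in pattern and the neighbours of Akr1c18. The number of arrays limits the precision. Alternatives were other filters, normalizations, no trend, models without line or vector, and single lines. The olfactory receptor background, the marker genes singled out beside members, and the use of the filter level in place of a dim control were chosen after seeing the data.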

Additional observations from a re-analysis of the deposited data

Results flagged for a closer look

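Among the 8 measured members and 10 other measured aldo-keto reductase genes, the change with Smarcb1 had opposite signs in the lines for 7. Opposite signs were common on the arrays. Of all tested genes, 26.0% were higher in both lines and 34.1% were lower in both. The difference between the lines was not tested because each line has 1 array per vector. As the response of line 365 minus that of line 167 on the log2 scale, the gap was -1.08 for Akr1b8, 0.25 for Akr1a1, 0.42 for Akr1c6 and 0.41 for Akr1c13 among the members. Among the other family genes it was 0.49 for Akr1e1, 0.47 for Kcnab2 and 0.24 for Kcnab3. Akr1c6 and Akr1c13 were below the filter level of 4.27 on every array. Akr1b8 was the 1 gene of the 7 with a gap of at least 2-fold. Of the genes named beside the family, signs were also opposite for Ucn3 (0.52), Crabp2 (-0.82), Esd (-0.33) and Hnf4a (0.33). The same held for Alb (0.16) and Cyp11a1 (-0.04), which were not tested for their low signal.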

How the results depend on the processing

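The line test called 1528 genes, and 1209 to 1939 under the other filters and normalizations and without the trend, but 653 without the vector term. It called 2 members, and 1 without the intensity trend and 1 without the vector term (Akr1b8 in each case). Akr1b8 passed under all 6 alternatives, with limma adjusted p up to 0.00652. Of the list genes, 0 passed the vector term, but 4 passed without the filter (Dhrs3, Ephx1, Ptgfrn and Ptgs2), 5 with a filter at the 50th percentile (also Aldh1a1), 3 after quantile normalization and 3 after cyclic loess (Dhrs3, Ephx1 and Ptgfrn each time). Without the line as a replicate block 0 passed, and 0 without the trend. The cause of these shifts was not tested. The mean change of Akr1c18 was 4.18, and 4.06 to 4.29 with 1 line left out. That of Akr1c14 was 1.54, and 0.09 to 2.99, so line 167 decided it. Each measured member has 1 probe set, so averaging probe sets changed 0 values. Signal over background limits Akr1c6, Akr1c12, Akr1c13, Akr1c19, 3 arrays of Akr1c14 and the controls of Akr1c18.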

Other observations

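The line in which Akr1b8 was high also differed in other redox and aldehyde genes, which were singled out after their values were seen. In the limma line term, 5 of 30 tested NRF2 targets and regulators were higher in line 365 and 1 was lower, against 10.9% called over all tested genes. Txnrd1, which encodes thioredoxin reductase, was higher in line 365 by 2.70 ± 0.18 (moderated SE, limma adjusted p = 0.00470), with signals of 8.37 and 8.17 in line 167 and 11.35 and 10.59 in line 365. The cystine transporter gene Slc7a11 was higher by 1.68, Taldo1 of the pentose phosphate pathway by 1.49, and the glutathione synthesis genes Gclc and Gclm by 1.08 and 0.89. The quinone reductase gene Nqo1 went the other way. It was at 8.44 and 8.21 in line 167 and at 4.10 and 3.64 in line 365, below the filter level there, a difference of -4.46 ± 0.19 (moderated SE, limma adjusted p = 0.00250).

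Of the 24 tested aldehyde, alcohol and polyol genes, the line term called 2 higher in line 365 (Aldh1a3 and Esd) and 2 lower (Glo1 and Aldh9a1). For this list and the retinoid list below, the share called over all tested genes was 10.9%. The retinaldehyde dehydrogenase gene Aldh1a3 was higher in line 365 by 3.41 ± 0.42 (moderated SE, limma adjusted p = 0.0169). Its signals were 6.40 and 6.29 in line 167 and 10.66 and 8.85 in line 365, so within line 365 it was lower by 1.81 with Smarcb1. Esd was higher by 1.08, and Glo1 and Aldh9a1 were lower by 1.05 and 0.66. Of the 19 tested retinoid genes, 1 was called higher, the retinoic acid hydroxylase gene Cyp26b1, by 1.39. The 3 called lower were the binding protein gene Crabp2, by 1.74, and the receptor genes Rarg and Rxra, by 1.00 and 0.92.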
